A study of Bos taurus with 3 samples.

Results

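The genes described here are 9 protease inhibitors: the cystatins *CSTA*, *CSTB*, *CST3* and *CST6*, the clade B serpins *SERPINB1*, *SERPINB2*, *SERPINB5* and *SERPINB10*, and the Kazal-type inhibitor *SPINK5*. They were chosen by name, with earlier results of these data known. All 9 had a row among the 19533 named genes of the rumen epithelial count matrix, of which 18326 had at least 1 UMI (unique molecular identifier, a tag that counts each captured transcript once). The cells came from the ventral sac of the rumen of 3 adult lactating Holstein dairy cows, all under 1 condition, with 1 library per cow. EDTA, trypsin and a mix of tissue-digesting enzymes freed the epithelial cells, dead cells were removed, and 3' droplet libraries were made with the 10x Genomics v3 chemistry. Other cell types had been taken out by the authors before deposit, so the animals served as 3 replicates of an epithelium seen without its underlying tissue.

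Cystatins are tight-binding inhibitors of papain-like cysteine proteases such as the cathepsins. The stefins *CSTA* and *CSTB* act inside the cell, whereas *CST3* and *CST6* are secreted, and *CST6* (cystatin E/M) also blocks legumain. Serpins trap serine proteases by an irreversible change of shape, although *SERPINB5* (maspin) belongs to the members that do not inhibit by this route, and *SPINK5* encodes LEKTI, the inhibitor that restrains kallikreins in cornifying skin. In stratified epithelia these families are known for limiting proteolysis as keratinocytes leave the basal layer and cornify.

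Cell states were set by UMI counts of 5 genes that are not among the 9. *BPIFA2C*-high cells had at least 3 UMIs of *BPIFA2C*, a BPI-fold family member, and at least 10 per 10000 UMIs of the cell. *GJA1*-positive cells had at least 2 UMIs of *GJA1* (connexin 43) and were not *BPIFA2C*-high. *KRT15*/*IGFBP6*-high cells had no UMI of *GJA1* or *DLK2* and were at or above percentile 66.7 of their own cow for both the basal keratin *KRT15* and *IGFBP6*. *DLK2*-positive cells had at least 2 UMIs of *DLK2*, a Notch ligand-like gene, no *GJA1* and were not high for both basal genes. These gates gave 1267 *KRT15*/*IGFBP6*-high, 3084 *DLK2*-positive, 1085 *GJA1*-positive and 265 *BPIFA2C*-high cells, and 15027 cells (72.5%) met no gate. The *BPIFA2C*-high state was the smallest, with 137, 55 and 73 cells in cows 1, 2 and 3. Most of its cells also expressed *GJA1*, with a UMI in 234 of 265. Their mean *GJA1* level was 7.38 ± 0.889 per 10000 UMIs, against 4.15 ± 0.854 in *GJA1*-positive cells (SD, n = 3 cows). The 2 states therefore differ by *BPIFA2C* and not by the presence of *GJA1*. The gates had soft edges: 249 *GJA1*-positive cells had exactly 2 *GJA1* UMIs while 780 ungated cells had 1, and 582 *GJA1*-positive cells carried a *BPIFA2C* UMI. The *DLK2* edge was softer, with exactly 2 *DLK2* UMIs in 1652 of the 3084 *DLK2*-positive cells and 1 in 4141 ungated cells. Of the 265 *BPIFA2C*-high cells, 118 had 10 to under 20 *BPIFA2C* UMIs per 10000.

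The 20728 cells held 237958901 UMIs, with medians of 9747 to 12051 UMIs per cell among the cows. Median depth was 9706 UMIs in *DLK2*-positive and 17171 in *GJA1*-positive cells, so levels are given as UMIs per 10000 UMIs of the summed cells. The summed level of 8 late differentiation markers ranged from 1.82 to 3.01 in *DLK2*-positive, from 4.12 to 7.85 in *KRT15*/*IGFBP6*-high, from 14.6 to 30.5 in *GJA1*-positive and from 28.0 to 124 in *BPIFA2C*-high cells, with *CNFN* at 0 in all 4 states. The 6 immune markers together did not exceed 0.186, the 5 fibroblast markers 0.0100, the 4 endothelial markers 0.0635 and the 4 smooth muscle markers 0.0132 in any of these states in any cow, against at least 51.4 for the 6 basal markers. The basal markers summed to 90.7 to 149 in *KRT15*/*IGFBP6*-high and 65.4 to 121 in *DLK2*-positive cells. They summed to 65.1 to 131 in *GJA1*-positive and 51.4 to 139 in *BPIFA2C*-high cells, so all 4 states overlapped. In all, 35 barcode sequences occurred in more than 1 library.

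The symbol of the stefin *CSTB* names 2 rows of the matrix. Values given for *CSTB* are those of the first, with 4348 UMIs, unless the second is named. The second row, with 77000 UMIs, is described below and had smaller differences. The first row differed between all 4 states. Its level was 0.183, 0.0766 and 0.144 in the *KRT15*/*IGFBP6*-high cells of cows 1, 2 and 3, and 0.0465, 0.0393 and 0.0395 in their *DLK2*-positive cells. It was 0.460, 0.294 and 1.10 in *GJA1*-positive cells. It reached 1.23, 1.43 and 3.94 in *BPIFA2C*-high cells. The 4 states followed the same order in each cow, *DLK2*-positive lowest and *BPIFA2C*-high highest, and no 2 states overlapped. The means were 0.0418 ± 0.00411, 0.135 ± 0.0538, 0.617 ± 0.424 and 2.20 ± 1.51 in that order (SD, n = 3 cows), and ungated cells had 0.123 ± 0.0571.

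**Figure D1:**
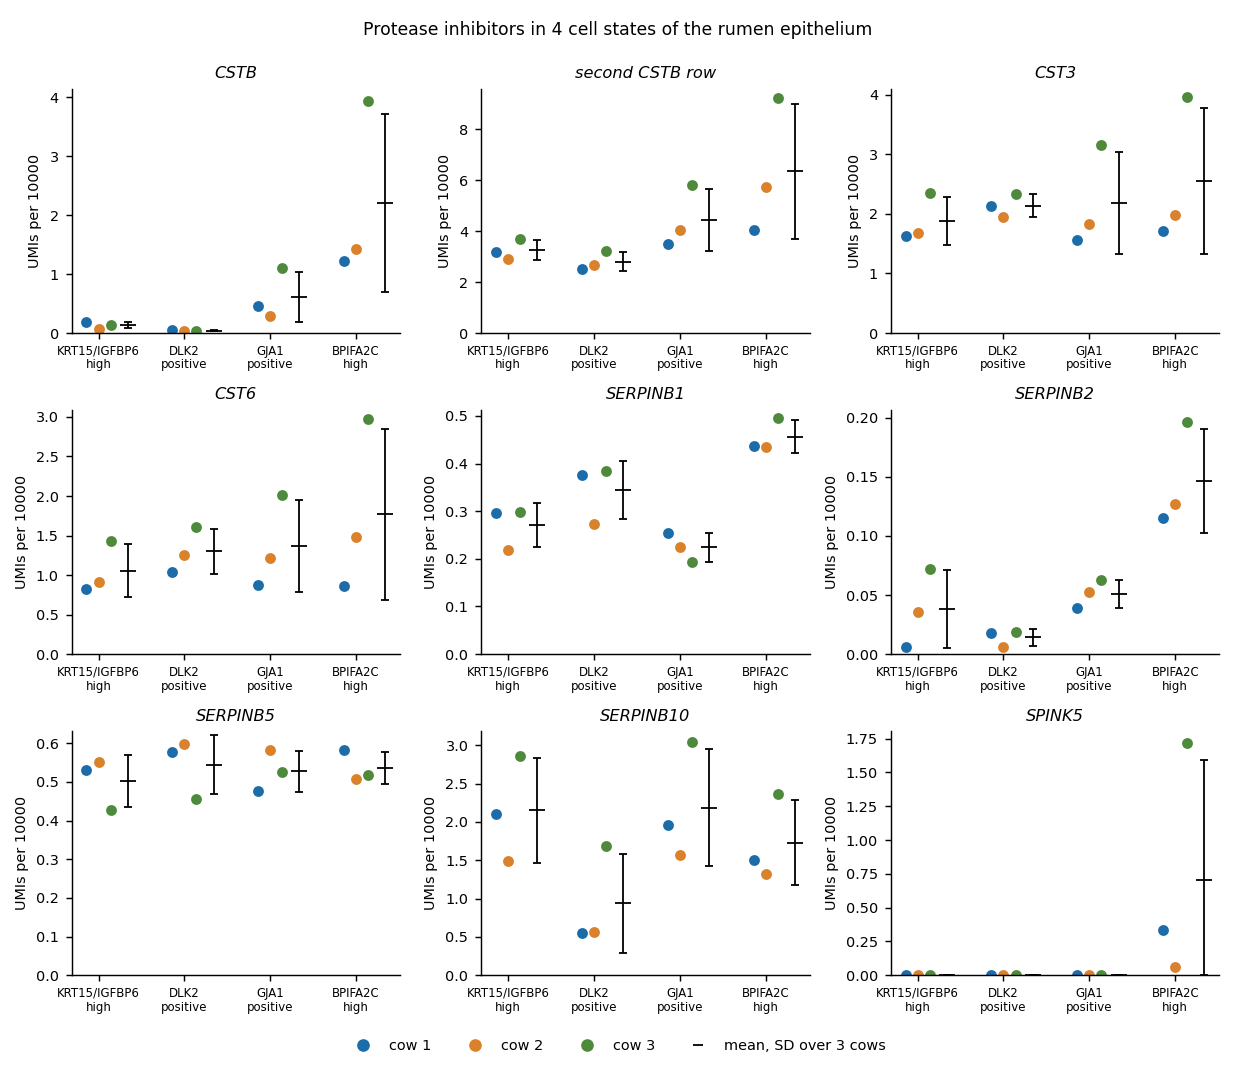
UMIs per 10000 of 8 protease inhibitors and of the second row named for *CSTB* (vertical axes, linear from 0, each with its own scale) in 4 cell states (horizontal axes), with 1 point per cow and the mean and SD over 3 cows in black; where the SD exceeds the mean the bar is drawn to 0. *CSTB* and *SPINK5* were highest in *BPIFA2C*-high cells of every cow, *SERPINB10* was lowest in *DLK2*-positive cells of every cow, and *SERPINB5* stayed between 0.427 and 0.599.

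All 6 differences of *CSTB* passed the edgeR quasi-likelihood test with the cow as a block (Benjamini-Hochberg adjusted p under 0.05 over 9991 genes and a log2 fold change beyond 0.36). *CSTB* was 2.59-fold lower in *DLK2*-positive than in *KRT15*/*IGFBP6*-high cells (edgeR, log2 fold change -1.38 ± 0.38 SE, adjusted p = 0.0197). It was 5.14-fold higher in *GJA1*-positive than in *KRT15*/*IGFBP6*-high cells (adjusted p = 4.8e-05) and 13.3-fold higher than in *DLK2*-positive cells (adjusted p = 2.4e-08). In *BPIFA2C*-high cells it exceeded the *GJA1*-positive level by 3.68-fold (log2 fold change 1.88 ± 0.24 SE, adjusted p = 0.00012) and the *DLK2*-positive level by 49.1-fold (adjusted p = 2.7e-10). The difference between *DLK2*-positive and *KRT15*/*IGFBP6*-high cells lost its call without cow 1 (log2 fold change -1.24, adjusted p = 0.077) and with *DLK2* and *GJA1* gates at 3 UMIs (adjusted p = 0.060). Cow 3 weighed on the size of others: without it the log2 fold changes against *KRT15*/*IGFBP6*-high cells were 1.74 for *GJA1*-positive cells (2.36 with it) and 3.56 for *BPIFA2C*-high cells (4.24 with it), and that of *BPIFA2C*-high against *DLK2*-positive cells was 5.03 (5.62 with it), all 3 still called.

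*CSTB* was also graded along the gate genes. Among cells that were not *BPIFA2C*-high, its level was 0.0921, 0.0547 and 0.148 in cows 1, 2 and 3 at 0 *GJA1* UMIs, 0.277, 0.169 and 0.599 at 1 UMI, and 0.512, 0.232 and 1.11 at 2 to 4 UMIs. At 5 or more *GJA1* UMIs it was 0.434, 0.339 and 1.08, so that only cow 2 was still higher than in the step before. Along *BPIFA2C*, the mean went from 0.123 ± 0.0588 in cells without a UMI to 0.439 ± 0.286 below 10 per 10000, 1.45 ± 0.793 from 10 to under 50 and 5.75 ± 2.25 at 50 or more (n = 3 cows), with each cow higher at each step. The last step held 59 cells, 7 of them from cow 2, and their median depth was 4171 UMIs. After each cell was thinned to 2000 UMIs, a *CSTB* UMI was left in 0.826% ± 0.262 of *DLK2*-positive, 2.23% ± 0.904 of *KRT15*/*IGFBP6*-high, 9.08% ± 6.44 of *GJA1*-positive and 26.5% ± 14.3 of *BPIFA2C*-high cells, against 3.76%, 10.1%, 40.4% and 61.0% unthinned.

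The symbol *CSTB* belongs to 2 Ensembl identifiers in the deposited gene list, and the table that names the matrix rows holds a second row for it, which cannot be tied to either identifier. RefSeq (assembly ARS-UCD2.0) likewise has 2 genes with *CSTB* as a synonym, so reads shared by the copies could have been split or dropped. The second row was far more evenly spread, with 77000 UMIs over 90.2% of the cells against 4348 UMIs over 10.7% for the first. Its level was 3.20, 2.91 and 3.69 in *KRT15*/*IGFBP6*-high, 2.50, 2.67 and 3.22 in *DLK2*-positive, 3.49, 4.05 and 5.81 in *GJA1*-positive and 4.06, 5.75 and 9.24 in *BPIFA2C*-high cells of cows 1, 2 and 3. The order of the states was the one seen for the first row, with smaller steps: it was 1.70-fold higher in *GJA1*-positive than in *DLK2*-positive cells (edgeR, adjusted p = 0.00024), 1.92-fold higher in *BPIFA2C*-high than in *KRT15*/*IGFBP6*-high cells (adjusted p = 0.00019) and 2.45-fold higher than in *DLK2*-positive cells (adjusted p = 1.7e-06). A further difference of 1.33-fold between *GJA1*-positive and *KRT15*/*IGFBP6*-high cells lay at the threshold (adjusted p = 0.04998, range over the alternatives 0.00030 to 0.65). The differences of *DLK2*-positive from *KRT15*/*IGFBP6*-high cells (log2 fold change -0.35, adjusted p = 0.12) and of *BPIFA2C*-high from *GJA1*-positive cells (0.52, adjusted p = 0.096) were not called. The latter was called in 4 alternatives: without a filter on low counts (adjusted p = 0.00023), with gates at 1 UMI (0.64, adjusted p = 0.012), with a stricter *KRT15* and *IGFBP6* gate (0.54, adjusted p = 0.046) and with *BPIFA2C* at 30 per 10000 (0.94, adjusted p = 0.00027). The former was called without cow 3 (-0.38, adjusted p = 0.041). Without the cow as a block the first 2 of the differences called and the one at the threshold were lost (edgeR, adjusted p = 0.088, 0.081 and 0.65).

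*CSTA* (ENSBTAG00000010688), the other stefin and a component of the cornified envelope in skin, was nearly absent. It had 24 UMIs in 23 of the 20728 cells and did not pass the filter on low counts, so no difference was tested. A *CSTA* UMI was found in 10 of 1085 *GJA1*-positive cells (0.922%, exact 95% interval 0.443 to 1.69%), in 3 of 265 *BPIFA2C*-high cells (1.13%, 0.234 to 3.27%), in 1 of 3084 *DLK2*-positive cells (0.0324%, 0.00082 to 0.181%) and in 1 of 1267 *KRT15*/*IGFBP6*-high cells (0.0789%, 0.0020 to 0.439%). These intervals cover counting error only and treat cells as independent, although the cells of a cow share a library.

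The secreted cystatin *CST3* (ENSBTAG00000000598) varied more between cows than between states. Its level was 1.63, 1.69 and 2.35 in *KRT15*/*IGFBP6*-high cells, 2.13, 1.95 and 2.33 in *DLK2*-positive cells, 1.57, 1.82 and 3.16 in *GJA1*-positive cells and 1.71, 1.99 and 3.96 in *BPIFA2C*-high cells of cows 1, 2 and 3. Cow 3 was highest in every state, and all states overlapped. None of the 6 differences passed the edgeR test, the lowest adjusted p being 0.086 for *BPIFA2C*-high against *KRT15*/*IGFBP6*-high cells (log2 fold change 0.42 ± 0.16 SE). An interval of 2 SE on either side of that value ran from 0.09 to 0.74. With *BPIFA2C*-high cells restricted to at least 30 per 10000, *CST3* did pass against *KRT15*/*IGFBP6*-high cells (log2 fold change 0.79, adjusted p = 0.0068) and against *DLK2*-positive cells (0.72, adjusted p = 0.0074). Both were also called without cells carrying *MKI67* or *TOP2A* UMIs (adjusted p = 0.027 and 0.028), the first without a filter on low counts (adjusted p = 0.0040), and the second without cow 1 (0.57, adjusted p = 0.038) and with gates at 1 UMI (0.37, adjusted p = 0.0498).

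*CST6* (ENSBTAG00000046587) showed larger steps. It stood at 0.820, 0.911 and 1.43 in *KRT15*/*IGFBP6*-high cells of cows 1, 2 and 3, at 1.04, 1.26 and 1.60 in *DLK2*-positive cells and at 0.879, 1.21 and 2.01 in *GJA1*-positive cells. In *BPIFA2C*-high cells it stood at 0.864, 1.48 and 2.97, and the ranges of the 4 states overlapped. It was 1.63-fold higher in *BPIFA2C*-high than in *KRT15*/*IGFBP6*-high cells (edgeR, log2 fold change 0.71 ± 0.17 SE, adjusted p = 0.0065, higher in 3 of 3 cows) and 1.39-fold higher than in *DLK2*-positive cells (0.48 ± 0.16 SE, adjusted p = 0.026, higher in 2 of 3 cows). Both calls rested on cow 3: without it the log2 fold changes were 0.40 (adjusted p = 0.085) and 0.13 (adjusted p = 0.51). The second was also lost without cow 2 (0.58, adjusted p = 0.057), with gates at 3 UMIs (0.40, adjusted p = 0.057) and without the cells of low mitochondrial share described below (0.20, adjusted p = 0.26), and both were lost when cells were thinned to 4000 UMIs before gating (adjusted p = 0.13 and 0.50). *GJA1*-positive against *KRT15*/*IGFBP6*-high cells gave no call (edgeR, log2 fold change 0.36 ± 0.15 SE, adjusted p = 0.13). That difference was called without a filter on low counts (0.39, adjusted p = 0.0094) and without the cells of low mitochondrial share (0.36, adjusted p = 0.046).

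*SERPINB1* (ENSBTAG00000011975), an inhibitor of neutrophil elastase and related proteases, had its lowest mean in *GJA1*-positive and its highest in *BPIFA2C*-high cells. In cows 1, 2 and 3 it was 0.255, 0.224 and 0.193 in *GJA1*-positive cells and 0.297, 0.218 and 0.299 in *KRT15*/*IGFBP6*-high cells. It was 0.376, 0.274 and 0.384 in *DLK2*-positive cells and 0.437, 0.435 and 0.497 in *BPIFA2C*-high cells. The *GJA1*-positive cells did not overlap the *DLK2*-positive cells, and the *BPIFA2C*-high cells overlapped no other state. *SERPINB1* was 1.38-fold lower in *GJA1*-positive than in *DLK2*-positive cells (edgeR, log2 fold change -0.46 ± 0.12 SE, adjusted p = 0.0056). It was 2.05-fold higher in *BPIFA2C*-high than in *GJA1*-positive cells (1.03 ± 0.15 SE, adjusted p = 0.00083), 1.72-fold higher than in *KRT15*/*IGFBP6*-high cells (adjusted p = 0.0022) and 1.48-fold higher than in *DLK2*-positive cells (adjusted p = 0.0056). The lower level in *GJA1*-positive cells was not called without cow 3 (log2 fold change -0.28, adjusted p = 0.10) or without cells carrying *MKI67* or *TOP2A* UMIs (-0.29, adjusted p = 0.085), and the difference of *BPIFA2C*-high from *DLK2*-positive cells was not called without cow 2 (0.51, adjusted p = 0.069). On cells thinned to 4000 UMIs none of the 4 differences was called (adjusted p from 0.12 to 0.82), with log2 fold changes in the same directions. Without the cells of low mitochondrial share described below, *BPIFA2C*-high cells were not called higher than any other state. The log2 fold changes were then 0.72, 0.46 and 0.25 against *GJA1*-positive, *KRT15*/*IGFBP6*-high and *DLK2*-positive cells (edgeR, adjusted p = 0.063, 0.087 and 0.26).

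*SERPINB2* (ENSBTAG00000023198), known as plasminogen activator inhibitor 2 and an inhibitor of urokinase, was sparse, with 848 UMIs in 739 cells. Its level was 0.115, 0.127 and 0.197 in *BPIFA2C*-high cells of cows 1, 2 and 3, above every value of the other states. It was 0.0388, 0.0523 and 0.0624 in *GJA1*-positive, 0.0179, 0.00575 and 0.0190 in *DLK2*-positive and 0.00631, 0.0358 and 0.0720 in *KRT15*/*IGFBP6*-high cells, where the value of cow 1 is 1 UMI. In *BPIFA2C*-high cells it was 13.7-fold higher than in *DLK2*-positive cells (edgeR, log2 fold change 3.78 ± 0.41 SE, adjusted p = 1.5e-06) and 3.50-fold higher than in *KRT15*/*IGFBP6*-high cells (adjusted p = 0.0028). The difference from *GJA1*-positive cells was 2.88-fold (1.53 ± 0.35 SE, adjusted p = 0.036). This call was lost on leaving out 1 cow each (log2 fold changes of 1.42 to 1.68, adjusted p from 0.077 to 0.19). It was also lost without *GJA1*-positive cells carrying a *BPIFA2C* or *DLK2* UMI (1.77, adjusted p = 0.052) and without the cow as a block (1.52, adjusted p = 0.79). The value fell most, to 1.22, without the cells of low mitochondrial share described below (adjusted p = 0.25). *GJA1*-positive cells were 4.75-fold above *DLK2*-positive cells (log2 fold change 2.25, adjusted p = 8.1e-05; 1.64 without cow 2 and 1.49 with gates at 1 UMI, both called). *DLK2*-positive cells were 3.92-fold below *KRT15*/*IGFBP6*-high cells (adjusted p = 0.0022), but in cow 1 the order was the opposite, and the call was lost without cow 2 (log2 fold change -1.47, adjusted p = 0.085).

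*SERPINB10* (bomapin, ENSBTAG00000001102), first described in blood-forming cells, set the *DLK2*-positive state apart. Its level was 0.556, 0.568 and 1.68 in the *DLK2*-positive cells of cows 1, 2 and 3. It was 2.10, 1.49 and 2.86 in *KRT15*/*IGFBP6*-high cells, 1.96, 1.56 and 3.04 in *GJA1*-positive cells and 1.50, 1.32 and 2.36 in *BPIFA2C*-high cells. Cow 3 was highest in each state, so the ranges overlapped across cows, while within every cow the *DLK2*-positive cells were lowest. They were 2.70-fold below *KRT15*/*IGFBP6*-high cells (edgeR, log2 fold change -1.43 ± 0.16 SE, adjusted p = 9.9e-06), 2.74-fold below *GJA1*-positive cells (adjusted p = 8.7e-07) and 2.24-fold below *BPIFA2C*-high cells (adjusted p = 3.2e-05). None of the 3 differences among the other states passed, with log2 fold changes of 0.02 ± 0.15, -0.27 ± 0.17 and -0.29 ± 0.16 (SE). With thinning to 2000 UMIs, a *SERPINB10* UMI was left in 13.0% ± 9.23 of *DLK2*-positive and in 30.3% ± 9.93, 32.7% ± 8.12 and 27.5% ± 17.2 of *KRT15*/*IGFBP6*-high, *GJA1*-positive and *BPIFA2C*-high cells, against 43.3%, 84.6%, 91.8% and 78.2% unthinned. The 6 immune markers summed to 0.0732 to 0.111 per 10000 in *DLK2*-positive, 0.0189 to 0.0800 in *KRT15*/*IGFBP6*-high, 0.0234 to 0.0818 in *GJA1*-positive and 0.0402 to 0.186 in *BPIFA2C*-high cells, and their part in the *SERPINB10* levels was not tested.

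Among cells that were not *BPIFA2C*-high, *SERPINB10* was higher at each step of *GJA1* in every cow. Its level was 1.11, 0.920 and 2.39 in cows 1, 2 and 3 at 0 UMIs, 1.50, 1.33 and 2.85 at 1 UMI, 1.91, 1.52 and 3.00 at 2 to 4 UMIs and 1.98, 1.60 and 3.09 at 5 or more. By the gates, the cells at 0 UMIs held all *DLK2*-positive and all *KRT15*/*IGFBP6*-high cells. The first step thus includes the low level of *DLK2*-positive cells (mean 0.936). *KRT15*/*IGFBP6*-high cells, also without *GJA1*, had a mean of 2.15 against 2.19 in *GJA1*-positive cells. *SERPINB1* showed no such order, with means of 0.293 ± 0.0371, 0.249 ± 0.0360, 0.203 ± 0.0221 and 0.239 ± 0.0311 over the same steps (n = 3 cows). Median depth went along these steps from 10125 to 18096 UMIs per cell, and its part in the levels was not tested.

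*SERPINB5* (maspin, ENSBTAG00000002019) kept nearly the same level throughout. The means were 0.503 ± 0.0666 in *KRT15*/*IGFBP6*-high, 0.544 ± 0.0766 in *DLK2*-positive, 0.528 ± 0.0525 in *GJA1*-positive and 0.536 ± 0.0406 in *BPIFA2C*-high cells (n = 3 cows). All 6 log2 fold changes lay between 0.00 and 0.16 with an SE of 0.11 to 0.15, and none passed the edgeR test (adjusted p from 0.41 to 1.00). The interval of 2 SE reaching furthest from 0 ran from -0.13 to 0.46, for *BPIFA2C*-high against *KRT15*/*IGFBP6*-high cells. The exception was the restriction of *BPIFA2C*-high cells to at least 30 per 10000, which raised this log2 fold change to 0.68 (adjusted p = 0.024) and that against *DLK2*-positive cells to 0.69 (adjusted p = 0.011). In the ungated cells the levels lay within the span of the 4 states: *CST3* had 1.95 ± 0.351, *CST6* 1.07 ± 0.337, *SERPINB1* 0.282 ± 0.0335, *SERPINB2* 0.0317 ± 0.0166 and *SERPINB10* 1.55 ± 0.759, while *SERPINB5*, at 0.493 ± 0.0395, was slightly below all of their means.

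**Figure D2:**
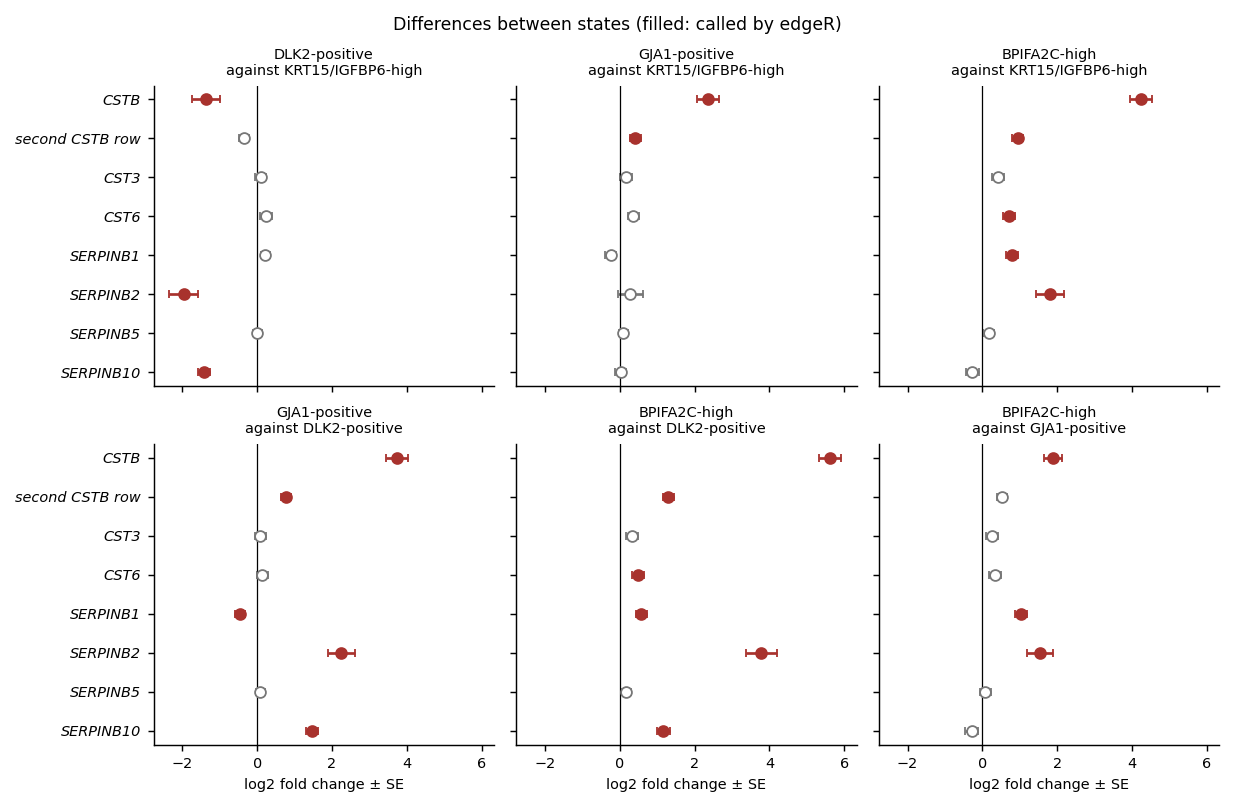
Log2 fold changes with SE (horizontal axes) of 7 protease inhibitors and the second row named for *CSTB* in 6 comparisons of cell states, from edgeR with 3 cows as blocks; filled red points passed the threshold and open points did not. The first row of *CSTB* passed in each comparison, from -1.38 to 5.62, while *CST3* and *SERPINB5* passed in none. The second row of *CSTB* passed except in *DLK2*-positive against *KRT15*/*IGFBP6*-high and in *BPIFA2C*-high against *GJA1*-positive cells. *SPINK5*, with 0 UMIs in 2 states, is left out.

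*SPINK5* (ENSBTAG00000019140) was found almost only in *BPIFA2C*-high cells, which held 239 of its 246 UMIs (97.2%). The *KRT15*/*IGFBP6*-high and *DLK2*-positive cells had no *SPINK5* UMI in any cow, the *GJA1*-positive cells had 1 each in cows 2 and 3, and the 15027 ungated cells had 5. In *BPIFA2C*-high cells the level was 0.331, 0.0635 and 1.72 in cows 1, 2 and 3, a wide spread in which every cow lay above all other states. Taken over the 3 cows together it was at least 307-fold higher than in *KRT15*/*IGFBP6*-high cells and at least 653-fold higher than in *DLK2*-positive cells, counting 3 UMIs over each group as the most that 0 allows. Against *GJA1*-positive cells the ratio was 560 (exact 95% counting interval 153 to 4650). The bounds allow for counting error in the second group only, and the interval treats UMIs as independent. Neither covers the spread between cells or between cows. *SPINK5* passed the filter on low counts only through the state in which it was high, so these ratios are a description and no test of them is given. Cow 3 weighed most in these ratios: without it they were at least 58.7-fold, at least 208-fold and 328 (interval 57.0 to 13128). Without cow 2 the bound against *DLK2*-positive cells was 325-fold and the ratio to *GJA1*-positive cells 907 (interval 161 to 35979).

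Few cells carried the *SPINK5* signal. A UMI was present in 16 of 137, 2 of 55 and 16 of 73 *BPIFA2C*-high cells of cows 1, 2 and 3, or 34 of 265 together (12.8%, exact 95% interval 9.05 to 17.5%). No UMI was seen in 3084 *DLK2*-positive cells, which allows a share of up to 0.0973% of cells with a UMI when 3 counts are taken as the most that 0 allows (exact 95% upper limit 0.120%). The single cell with most had 46 *SPINK5* UMIs, and in cow 3 the 8 cells with at least 5 UMIs held 144 of 166. Along the *BPIFA2C* level, the 1553 cells below 10 per 10000 had 3 *SPINK5* UMIs, the 211 cells from 10 to under 50 had 14 and the 59 cells at 50 or more had 225, or levels of 3.45, 0.478 and 5.97 in cows 1, 2 and 3. With the *BPIFA2C*-high gate set at 30 per 10000, the log2 fold changes against *KRT15*/*IGFBP6*-high, *DLK2*-positive and *GJA1*-positive cells were 5.12, 6.55 and 2.62 for *CSTB* and 1.56, 1.37 and 1.73 for *SERPINB1*, and those of *SERPINB2* against the first 2 were 3.28 and 5.30, each above its value at 10 per 10000 by more than 1.5-fold on the linear scale. The difference of *SERPINB2* from *GJA1*-positive cells went from 2.88-fold to 8.56-fold (edgeR, adjusted p = 3.8e-05). *CST6* moved likewise, to 1.43, 1.22 and 1.08, and was then also called against *GJA1*-positive cells (edgeR, adjusted p = 0.00013). This gate kept 41, 18 and 34 *BPIFA2C*-high cells in cows 1, 2 and 3. The *GJA1*-positive cells went from 358, 383 and 344 to 438, 417 and 372. Median depth was 15604 UMIs in all *BPIFA2C*-high cells. It was 17132 in the cells from 10 to under 50 per 10000 and 4171 in the 59 cells at 50 or more. The part of depth and mitochondrial share in these moves was not tested.

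**Figure D3:**
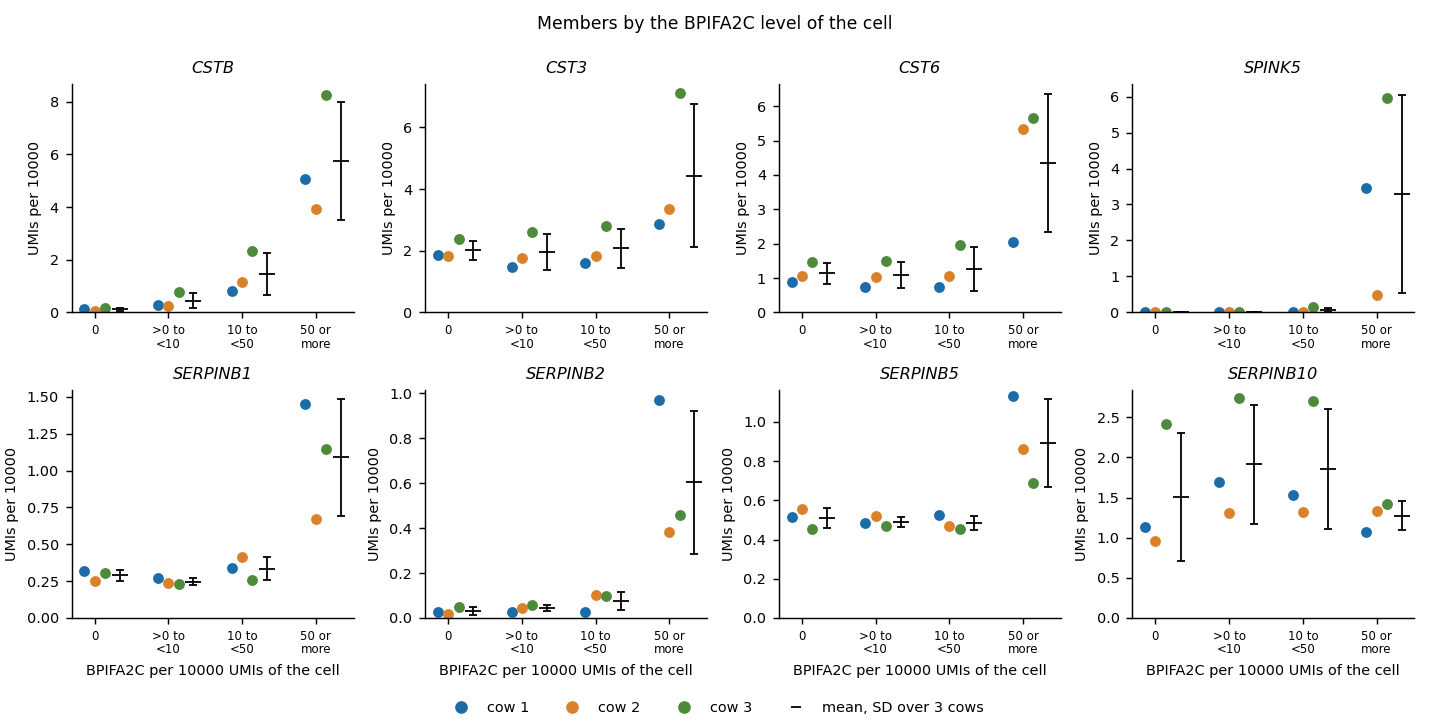
UMIs per 10000 of 8 protease inhibitors (vertical axes, linear from 0) in cells grouped by their own *BPIFA2C* level (horizontal axes), with 1 point per cow and the mean and SD over 3 cows in black. *CSTB* was higher at each step in every cow, *SPINK5* and *SERPINB2* were highest at the last step, and *SERPINB10* at the last step was lowest in cows 1 and 3 (1.08 and 1.41) and highest in cow 2 (1.34).

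The *BPIFA2C*-high cells were split at a set mitochondrial share of 2%, with cells under it as the low group. *CSTB*, *SERPINB1* and *SERPINB5* were higher in the low group in each cow, while *CST3*, *CST6*, *SERPINB2*, *SERPINB10* and *SPINK5* differed in direction between cows. In 60 of the 265 cells (34, 5 and 21 in cows 1, 2 and 3) mitochondrial transcripts made up under 2% of UMIs, with a median depth of 3037 UMIs against 17783 in the other 205. *CSTB* was 5.54, 5.88 and 11.1 in the low group and 0.928, 1.34 and 2.72 in the rest. *SERPINB1* was 1.48, 1.81 and 1.64 against 0.365, 0.407 and 0.303, without overlap. *SERPINB5*, level across the states, was 1.64, 2.26 and 0.711 against 0.510, 0.472 and 0.484.

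*CST3* was 3.51, 0.904 and 6.90 in the low group of cows 1, 2 and 3 against 1.59, 2.01 and 3.46 in the rest, *CST6* was 2.19, 0.452 and 9.17 against 0.773, 1.50 and 1.91, and *SERPINB2* was 0.624, 0 and 0.498 against 0.0805, 0.130 and 0.145. For these 3, cows 1 and 3 were higher in the low group and cow 2 was lower. Of the 239 *SPINK5* UMIs, 197 were in the 60 low-mitochondrial cells, where the level was 5.00, 0 and 9.46 in cows 1, 2 and 3, against 0.0107, 0.0648 and 0.400 in the remaining cells. *SERPINB10* did not separate the groups, with 1.56, 1.81 and 0.995 against 1.49, 1.31 and 2.59. The values of cow 2 rest on 5 cells, and no test was run on this split. With cells under 2% left out of all states, *SERPINB1* was no longer called higher in *BPIFA2C*-high cells than in *KRT15*/*IGFBP6*-high (log2 fold change 0.46, adjusted p = 0.087), *DLK2*-positive (0.25, adjusted p = 0.26) or *GJA1*-positive cells (0.72, against 1.03 with them, edgeR adjusted p = 0.063). The *SERPINB2* difference from *GJA1*-positive cells was 1.22 on the log2 scale, against 1.53 with them, and was not called (adjusted p = 0.25), while *SPINK5* fell below the filter on low counts. The calls of *CSTB* were kept in all 6 comparisons.

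**Figure D4:**
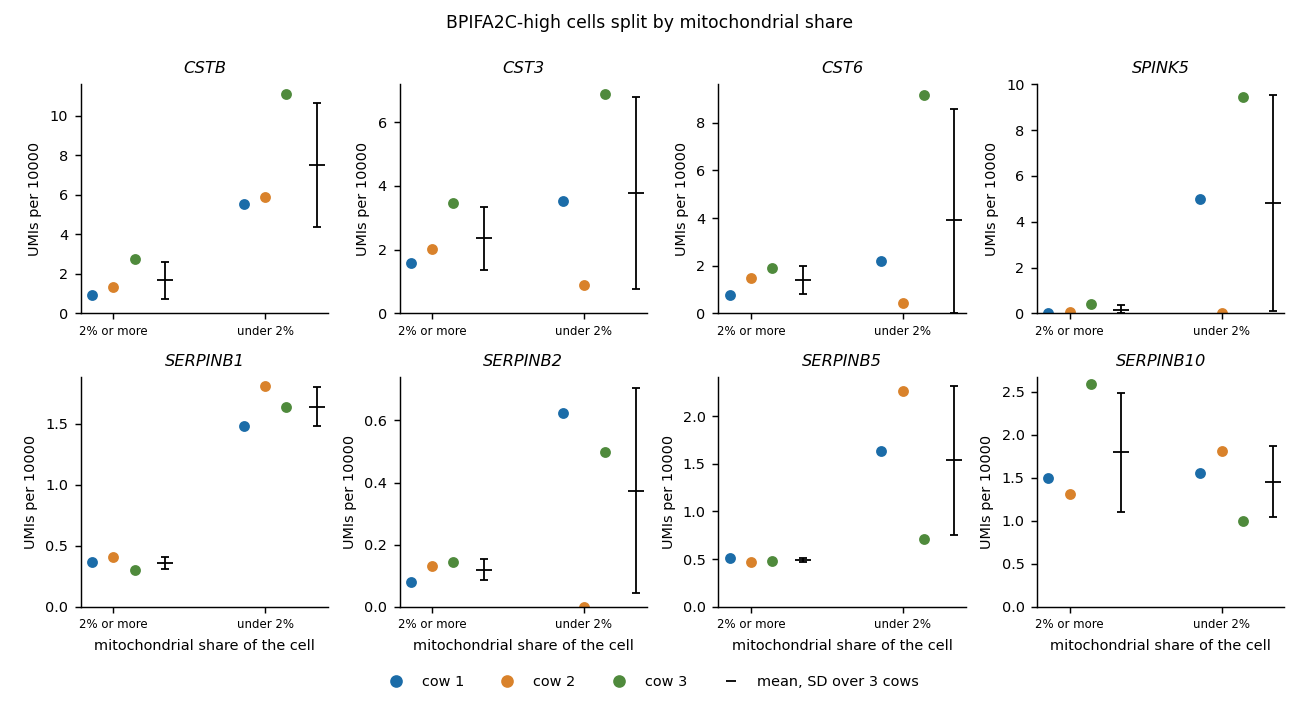
UMIs per 10000 of 8 protease inhibitors (vertical axes, linear from 0) in *BPIFA2C*-high cells with a mitochondrial share of at least 2% (205 cells) and under 2% (60 cells), with 1 point per cow and the mean and SD over 3 cows in black; where the SD exceeds the mean the bar is drawn to 0. *CSTB* and *SERPINB1* were higher in the low group of each cow, and cow 2 has 5 cells there.

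Of the 9 members *CSTA* did not pass the filter on low counts and *SPINK5* passed it only through *BPIFA2C*-high cells, and both are left out of these counts. Of the other 7, 0 were called higher and 3 lower in *DLK2*-positive than in *KRT15*/*IGFBP6*-high cells, where 5.25% of the 9991 genes tested were called higher and 7.52% lower; with an unadjusted p under 0.05 by edgeR 0 were higher, and DESeq2 also called 0. In *GJA1*-positive against *KRT15*/*IGFBP6*-high cells 1 was higher and 0 lower, beside 7.96% and 7.78% of all genes; 0 were lower at an unadjusted p under 0.05 or by DESeq2. In *GJA1*-positive against *DLK2*-positive cells 3 were higher and 1 lower, beside 19.5% and 21.3%. The *BPIFA2C*-high cells had 4 higher and 0 lower than *KRT15*/*IGFBP6*-high cells (8.52% and 7.68% of all genes), 5 and 0 against *DLK2*-positive cells (17.2% and 17.9%) and 3 and 0 against *GJA1*-positive cells (1.14% and 0.21%). None of the 7 was lower in these 3 comparisons by DESeq2 or at an unadjusted edgeR p under 0.05. The median log2 fold change of the 7 members ran from 0.00 to 0.71 over the 6 comparisons, and that of all genes tested from -0.06 to 0.02. In these counts *CSTB* stands by its first row. The second row was not called in *DLK2*-positive against *KRT15*/*IGFBP6*-high cells (edgeR, adjusted p = 0.12). Nor was it called in *BPIFA2C*-high against *GJA1*-positive cells (adjusted p = 0.096). Without the cow as a block, 11 calls kept their direction but were lost (edgeR, adjusted p from 0.061 to 0.79): 3 of *CSTB*, 3 of *SERPINB2*, 2 of *SERPINB10*, 2 of *CST6* and 1 of *SERPINB1*. These comparisons share sums of the same cells, so their counts are not independent of one another. The members, the other lists and the gates were also chosen with earlier results of these data known. The shares over all genes are therefore given for scale and are no test of the members as a set. They also keep genes that passed the filter only through 1 state, which the counts of members and lists leave out.

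The likeness of patterns was described by Pearson's r of log2 CPM over the 12 sums of 3 cows and 4 states, after the mean of each cow was taken out, among 9982 other genes tested. Nearest to *CSTB* were *KRT6A* (r = 0.993), *PKP1* (0.993) and *COX17* (0.992), and 540 genes had an r over 0.9. *SPINK5* was nearest to an unnamed gene (0.988), *PIP* (0.988) and *TGM1* (0.982). Both *SPINK5* and *TGM1* passed the filter on low counts only through *BPIFA2C*-high cells. A high r of *SPINK5* with genes confined to that state was therefore given in advance. *SERPINB2* was nearest to *TSKU* (0.957) and *SERPINB1* to *HOMER2* (0.965). *SERPINB10* was nearest to 2 unnamed genes and to *UQCRH* (0.981), while *CST3* had *KLC3* (0.954), *CST6* had *TUBG1* (0.967) and *SERPINB5* had *TGFBRAP1* (0.929). Among the members themselves r was 0.924 for *CST3* with *CST6*, 0.844 for *CSTB* with *SERPINB2* and -0.187 for *SERPINB1* with *SERPINB10*. The sums of a state share its gates and its depth, so these values are a description.

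Other protease inhibitors and the proteases that such inhibitors can meet were measured in the same sums. Of 41 further inhibitors 28 had a row and 14 were tested, 2 of which, *SERPINB13* and *A2ML1*, passed the filter only through *BPIFA2C*-high cells and are left out of the counts. In *BPIFA2C*-high against *GJA1*-positive cells 1 of the other 12 was higher, *SERPINB12*, and 0 were lower (2 lower at an unadjusted p under 0.05 by edgeR, 0 by DESeq2), beside 1.14% and 0.21% of all genes, with a median log2 fold change of 0.04 beside -0.03 over all genes. In *GJA1*-positive against *DLK2*-positive cells 2 were higher and 7 lower (median -0.54 beside -0.04, with 19.5% and 21.3% of all genes called), and in *BPIFA2C*-high against *DLK2*-positive cells 2 and 6 (median -0.49 beside -0.06, with 17.2% and 17.9%). *SERPINB12* was 0.176, 0.200 and 0.0621 in *BPIFA2C*-high and 0.0823, 0.0603 and 0.0195 in *GJA1*-positive cells of cows 1, 2 and 3 (edgeR, log2 fold change 1.45 ± 0.28 SE, adjusted p = 0.0080). *SERPINB13*, which inhibits cathepsins L and K, had 32 UMIs in *GJA1*-positive and 62 in *BPIFA2C*-high cells and none in *KRT15*/*IGFBP6*-high cells. *A2ML1*, a broad trap for proteases made by cornifying keratinocytes, was 1.50, 0.481 and 1.07 in *BPIFA2C*-high and 0.0109, 0.00536 and 0.00585 in *GJA1*-positive cells.

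The opposite order was seen for *SERPINE2* (protease nexin 1), at 0.231, 0.351 and 0.306 in *DLK2*-positive and 0.0201, 0.00907 and 0.0310 in *BPIFA2C*-high cells (edgeR, log2 fold change -3.69 ± 0.38 SE, adjusted p = 6.2e-07). *TIMP2*, an inhibitor of matrix metalloproteases, was higher in *DLK2*-positive than in *KRT15*/*IGFBP6*-high cells (2.73 ± 0.36 SE, adjusted p = 5.7e-05), with *DLK2*-positive levels of 0.372, 0.112 and 0.0220 in cows 1, 2 and 3.

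**Figure D5:**
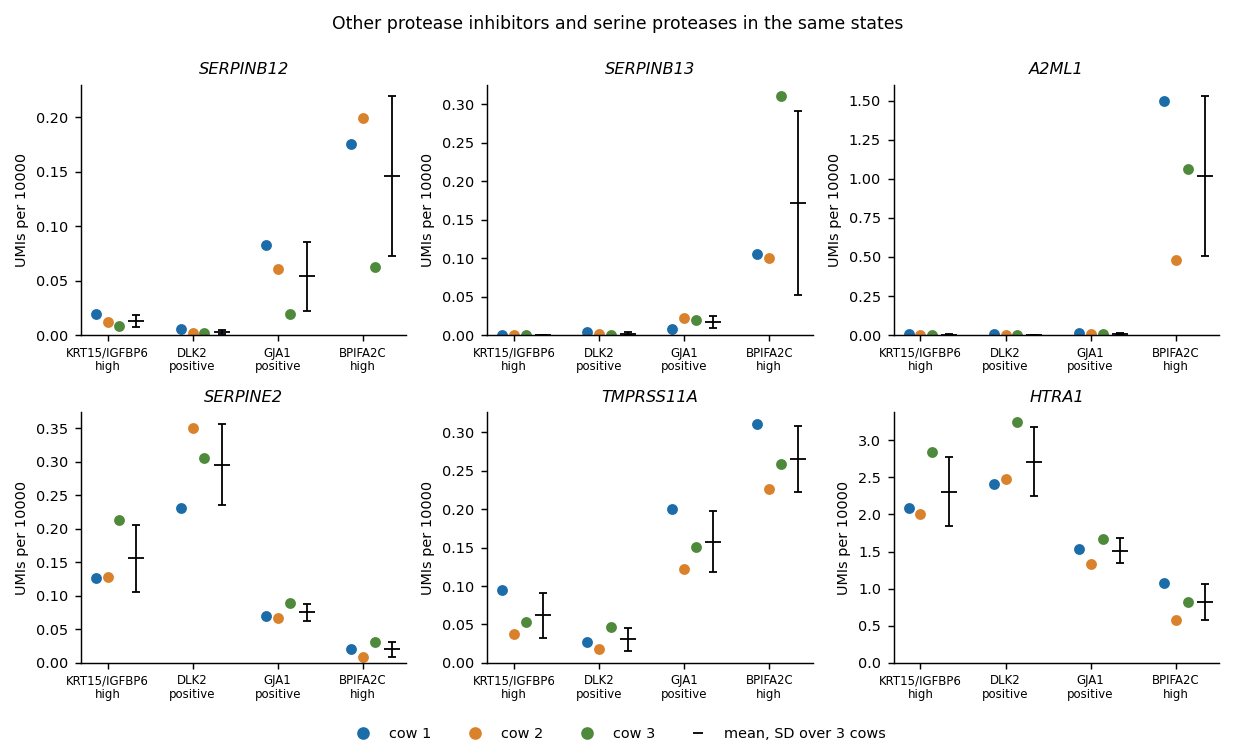
UMIs per 10000 (vertical axes, linear from 0) of 4 other protease inhibitors and of the serine proteases *TMPRSS11A* and *HTRA1* in 4 cell states (horizontal axes), with 1 point per cow and the mean and SD over 3 cows in black; where the SD exceeds the mean the bar is drawn to 0. *A2ML1* was at least 0.481 in the *BPIFA2C*-high cells of each cow and at most 0.0109 elsewhere, and *SERPINE2* and *HTRA1* were highest in *DLK2*-positive cells.

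Of the 12 cysteine cathepsins and legumain, which are targets of the cystatins, 8 were tested. *CTSB* was the one gene of this list called in *BPIFA2C*-high against *GJA1*-positive cells, with 0.643, 0.463 and 0.548 against 0.402, 0.391 and 0.343 in cows 1, 2 and 3 (median of the list 0.12, of all genes -0.03, log2 fold change). It was 1 of 8, beside 1.14% of all genes called higher and 0.21% lower. In *GJA1*-positive against *DLK2*-positive cells 1 was higher (*CTSZ*) and 3 were lower (*CTSF*, *CTSH* and *CTSV*), beside 19.5% and 21.3% of all genes, with a median log2 fold change of -0.14 for the list and -0.04 for all genes. Of 29 serine proteases 8 were tested, 1 of which, *KLK13*, is left out because it passed the filter with just enough sums, 2 of them *DLK2*-positive. In *GJA1*-positive against *DLK2*-positive cells 3 of the other 7 were higher (*ST14*, *TMPRSS11A* and *PLAU*) and 3 lower (*KLK10*, *PRSS8* and *HTRA1*), beside the same 19.5% and 21.3% of all genes. The median log2 fold change was 0.52 over these 7 and -0.10 over all 8, where *KLK13* made 4 lower, so its sign rests on that gene. *KLK10*, a kallikrein, a family that LEKTI restrains in skin, was higher in *DLK2*-positive than in *KRT15*/*IGFBP6*-high cells (edgeR, log2 fold change 1.18 ± 0.35 SE, adjusted p = 0.034). Neither of these states had a *SPINK5* UMI. *HTRA1* was the one serine protease called in *BPIFA2C*-high against *GJA1*-positive cells, where it was lower (-0.79 ± 0.15 SE, adjusted p = 0.0092), 1 of 7 beside 0.21% of all genes called lower and 1.14% higher. At an unadjusted p under 0.05 by edgeR 3 of these 7 were higher and 1 lower, with a median log2 fold change of 0.11. DESeq2 called 0 higher and 1 lower. Of 9 other proteases 5 were tested, and *CTSA* and *CTSD* were higher and *CAPN2* and *BLMH* lower in *GJA1*-positive than in *DLK2*-positive cells (median of the list -0.33), again beside 19.5% and 21.3% of all genes.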

How the data were processed

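RNA of single epithelial cells from the rumen of 3 cows was sequenced in droplets. The authors aligned reads to the ARS-UCD1.2 genome with Ensembl 99 genes and counted UMIs with Cell Ranger 3.1.0, filtered cells in Seurat, marked doublets with DoubletFinder and removed other cell types. The deposited matrix holds the resulting UMI counts per gene and cell as whole numbers. Its rows were named from the deposited table of natural log values, ln of 1 plus the count scaled to 10000 UMIs per cell, which differed from this formula by more than 1e-06 at 0 of 404880024 values. The suffix of the barcode gave the cow. Depth was 38912809, 94856658 and 104189434 UMIs in cows 1, 2 and 3. With 3 animals and the cow as a block, the precision rests on how alike the differences between states are from cow to cow.

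The 9 members, the other lists and the gates were chosen with earlier results of these data known. Counts were summed per cow and state (12 sums) and tested in R 4.3.3 with edgeR 4.0.16 (TMM, filterByExpr, quasi-likelihood test, Benjamini-Hochberg over 9991 genes, common biological coefficient of variation 0.104), with the cow as a block because the states compared come from the same animals. The deviations of sums of the same cow from their state means correlated at 0.330 to 0.696, those of different cows at -0.467 to -0.0883. Calls needed a log2 fold change beyond 0.36 together with an adjusted p below 0.05. Genes that would have missed the filter without the sums of some 1 state were left out of counts of members and lists and of tests in the text. They were kept in the shares and numbers over all genes. SE is the fold change divided by the root of the F statistic. The script was tested on simulated data. The text names the members, the gate genes, at most 4 genes of the other lists per comparison (largest log2 fold change among those called with 1 direction in 3 cows) and the genes nearest in pattern (prior count 2). Exceptions, chosen after their values were seen, are genes listed as the called ones of a list. Thinning drew UMIs without replacement, and shares leave out cells under 2000 UMIs (4, 4, 12 and 15 cells from *KRT15*/*IGFBP6*-high to *BPIFA2C*-high). Doublets were not called again, and the files hold no cell types. Python 3.11.15, numpy 2.4.6, scipy 1.17.1, pandas 2.3.3 and matplotlib 3.10.9 were used, and DESeq2 1.42.0 for an alternative. Genome positions were not used, because the annotation at hand is of another assembly.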

Additional observations from a re-analysis of the deposited data

How the results depend on the processing

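Over 14 alternatives, 582 log2 fold changes of the 7 members without *CSTA* and *SPINK5* were recomputed: 534 kept their side of the threshold, 36 lost a call, 12 gained one and none that was called changed sign, while 22 values called in neither fit did. One alternative, without *GJA1*-positive cells that carried a *BPIFA2C* or *DLK2* UMI, was chosen after seeing the data. Comparisons 1 to 6 were, in order, *DLK2*-positive, *GJA1*-positive and *BPIFA2C*-high against *KRT15*/*IGFBP6*-high, *GJA1*-positive and *BPIFA2C*-high against *DLK2*-positive, and *BPIFA2C*-high against *GJA1*-positive. The genes called numbered 1276, 1572, 1618, 4079, 3507 and 135. Without the pairing by cow (no replicate block) they fell to 85, 108, 410, 1571, 1656 and 29, and the members called from 3, 1, 4, 5 and 3 of the 7 to 0, 0, 2, 3 and 1 in comparisons 1, 2, 3, 5 and 6. This ended 11 calls of single members, among them *CSTB* in comparison 6 (adjusted p = 0.30) and *SERPINB10* in comparison 1 (0.19, edgeR). Thinning cells to 4000 UMIs before gating, which left 5123 genes, gave 796, 738, 644, 1842, 1610 and 26 genes, and 1, 2, 2 and 1 members in comparisons 3 to 6; *SPINK5* and *SERPINB2* were then below the filter. Without cells under 2% mitochondrial share, members called were 2 in comparison 2, 3 in comparison 5 and 1 in comparison 6, where 78 genes were called. With gates at 1 UMI comparisons 2 and 6 had 1036 and 351 genes. Without a filter on low counts comparison 6 had 287 genes and comparison 2 had 2 members, and with *BPIFA2C* at 30 per 10000 comparison 6 had 536 genes. Leaving out 1 cow each gave 509 (without cow 2) to 1403 genes in comparison 1, with 676 without cow 1, 670 (without cow 2) to 1197 in comparison 2, with 882 without cow 3, 863 (without cow 2) to 1231 in comparison 3, with 1028 without cow 3, and 89 (without cow 2) to 113 in comparison 6, and 3 (without cow 2) to 6 members in comparison 5.

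Depth limits *CSTA*, *SPINK5* and *SERPINB2* most. The *BPIFA2C*-high sum of cow 3 held 966464 UMIs, so that 1 UMI there equals 0.0103 per 10000. Intervals on cells cover counting error only. A lower level in a state cannot be told apart from a higher level of other transcripts, since all values are shares of the UMIs of a sum, and the part of depth and mitochondrial share in the differences was not tested.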
